A study of Mus musculus with 12 samples.

Results

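The Aim2 and Ifi200 gene cluster of mouse chromosome 1 lies in a window with 41 regions that had a FoxP3 peak, of 24765 such regions over all chromosomes. The regions are those with a peak summit between 175200000 and 176200000 (mm9), a window that was chosen by its gene content and by 1 measured value, the rank of its strongest peak over all lists. They held 97 of 53228 peaks in 6 peak lists. The rank of that strongest peak is therefore given as a description and not as a result.

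FoxP3, the forkhead transcription factor that defines regulatory T (Treg) cells, was mapped by chromatin immunoprecipitation and sequencing. The 2 groups were CD4(+)hCD2(+) Treg cells of FoxP3WT:hCD2 mice (WT) and of FoxP3A384T:hCD2 mice (A384T), both on the C57BL/6J strain, without treatment and freshly isolated from lymph nodes and spleen. Cells of both groups were magnetically sorted on hCD2, which the WT line carries as well, and the lines differ in the A384T substitution of FoxP3. Each group had 3 ChIP libraries made with the same rabbit polyclonal antibody, and the labels also name 6 input libraries, which were not analysed here. The ages of the mice, and whether replicates came from separate animals or from pools, are not given in the sources used here, so each p-value below reflects how far these libraries scatter, and that scatter may be technical. The lists hold no expression values, so the labelled cell type was not checked against its markers.

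The genes of this cluster encode the PYHIN proteins, most of which join a pyrin domain to a DNA-binding HIN domain. Aim2 senses DNA in the cytosol and assembles an inflammasome through the adaptor Pycard (ASC) and Casp1, the protease that matures Il1b and Il18. Ifi204, Ifi203, Mndal, Pyhin1 and their relatives are interferon-inducible nuclear or cytosolic proteins, and the family expanded in mice through tandem gene duplication. Aim2 is also known to be expressed in Treg cells.

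The gene table at hand is of the assembly GRCm38.p6, which is not the build of the peaks, so peaks are given by mm9 position and no peak is assigned to a gene. In that table the order along chromosome 1 is Aim2, Ifi206, Ifi214, Ifi213, Ifi209 (the current symbol of Pyhin1), Ifi208, Ifi207, Ifi204, Mndal, Ifi211, Ifi203, Ifi202b and Ifi205. These 13 protein-coding genes are interspersed with 5 pseudogenes and 1 tRNA gene, and Cadm3 and the olfactory receptor gene Olfr433 flank them. Of the 16 family names looked for, Pyhin1 and Ifi209 being 1 gene, Mnda and Ifi207-ps were not matched by symbol, and the inflammasome partners Pycard, Casp1, Il1b and Il18 lie outside the order from Aim2 to Ifi205.

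Promoter sequences show how closely some of these genes resemble each other. The RefSeq promoters (GRCm38.p6, 250 bases before to 50 bases after the start site, 5′ to 3′) are shown for Aim2 and for 3 sets of near copies (Ifi206, Ifi213 and Ifi208; Ifi214 and Ifi209; a promoter each of Mndal and Ifi203), with matches to a forkhead motif and to an interferon-stimulated response element in capitals. These coordinates belong to GRCm38.p6 and must not be set against the mm9 positions of the peaks.
Aim2, chr1:173420354-173420653 (+ strand): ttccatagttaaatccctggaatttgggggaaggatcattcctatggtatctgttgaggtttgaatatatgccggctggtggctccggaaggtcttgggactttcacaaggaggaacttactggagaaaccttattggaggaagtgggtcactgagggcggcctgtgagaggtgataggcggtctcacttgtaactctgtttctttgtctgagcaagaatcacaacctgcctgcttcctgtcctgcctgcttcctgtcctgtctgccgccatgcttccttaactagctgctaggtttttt
Ifi206, chr1:173491269-173491568 (- strand): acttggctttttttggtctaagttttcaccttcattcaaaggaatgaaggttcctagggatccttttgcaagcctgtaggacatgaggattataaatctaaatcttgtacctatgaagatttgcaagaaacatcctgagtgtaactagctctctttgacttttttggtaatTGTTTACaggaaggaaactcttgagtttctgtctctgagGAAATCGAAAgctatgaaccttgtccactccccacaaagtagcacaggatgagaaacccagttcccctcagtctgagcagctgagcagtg
Ifi213, chr1:173599223-173599522 (- strand): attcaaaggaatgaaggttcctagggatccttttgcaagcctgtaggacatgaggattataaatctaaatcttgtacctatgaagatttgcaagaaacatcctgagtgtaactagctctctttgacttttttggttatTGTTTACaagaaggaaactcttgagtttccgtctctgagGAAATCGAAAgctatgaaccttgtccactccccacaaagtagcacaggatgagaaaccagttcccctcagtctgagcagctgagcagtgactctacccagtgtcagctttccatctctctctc
Ifi208, chr1:173673415-173673714 (+ strand): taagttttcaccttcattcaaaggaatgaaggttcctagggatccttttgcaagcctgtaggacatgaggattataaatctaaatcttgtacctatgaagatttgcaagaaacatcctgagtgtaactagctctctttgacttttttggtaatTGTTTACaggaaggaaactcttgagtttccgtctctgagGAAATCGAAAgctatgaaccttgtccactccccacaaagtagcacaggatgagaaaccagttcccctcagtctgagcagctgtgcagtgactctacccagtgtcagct
Ifi214, chr1:173535908-173536207 (- strand): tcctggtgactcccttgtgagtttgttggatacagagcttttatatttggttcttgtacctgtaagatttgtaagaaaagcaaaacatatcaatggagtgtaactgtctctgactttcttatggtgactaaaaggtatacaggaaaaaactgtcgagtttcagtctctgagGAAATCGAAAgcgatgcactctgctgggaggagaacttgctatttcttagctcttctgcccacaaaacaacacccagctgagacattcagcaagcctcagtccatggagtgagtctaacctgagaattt
Ifi209 (Pyhin1), chr1:173630609-173630908 (+ strand): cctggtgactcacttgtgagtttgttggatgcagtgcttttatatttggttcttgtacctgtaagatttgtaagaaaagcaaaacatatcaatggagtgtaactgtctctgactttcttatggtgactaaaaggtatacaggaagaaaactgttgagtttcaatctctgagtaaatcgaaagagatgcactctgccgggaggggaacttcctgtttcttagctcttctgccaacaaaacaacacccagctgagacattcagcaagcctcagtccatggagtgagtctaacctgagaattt
Mndal promoter 2, chr1:173880138-173880437 (- strand): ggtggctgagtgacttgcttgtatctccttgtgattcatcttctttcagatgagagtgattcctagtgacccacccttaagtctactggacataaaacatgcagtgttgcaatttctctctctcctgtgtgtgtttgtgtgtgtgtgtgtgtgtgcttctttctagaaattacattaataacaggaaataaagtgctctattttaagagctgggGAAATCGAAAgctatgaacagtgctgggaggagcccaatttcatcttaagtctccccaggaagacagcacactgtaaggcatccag
Ifi203 promoter 1, chr1:173942443-173942742 (- strand): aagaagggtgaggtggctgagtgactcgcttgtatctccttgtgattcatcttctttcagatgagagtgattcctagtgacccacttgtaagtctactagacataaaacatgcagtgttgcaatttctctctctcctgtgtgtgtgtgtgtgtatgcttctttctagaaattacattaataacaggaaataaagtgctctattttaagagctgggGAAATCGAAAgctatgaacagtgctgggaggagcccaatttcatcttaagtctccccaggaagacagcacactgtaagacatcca

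The promoters of Ifi206, Ifi213 and Ifi208 formed 1 group of near copies. Ifi208 shared 94.0% of 300 bases with Ifi213 and 93.0% with Ifi206, and Ifi206 shared 87.7% with Ifi213 (global alignment). The promoter of Ifi214 shared 95.7% with that of Ifi209. Mndal promoter 2 shared 94.0% with Ifi203 promoter 1. The only other pair at 80% or more, not shown, was Ifi207 with Ifi211 (87.0%). The remaining 85 of 91 pairs among 14 promoters of 12 genes shared 47.7 to 64.3%, the Aim2 promoter included. The alignment ran end to end, so a shift between start sites lowers the value. Ifi203 promoters 1 and 2 overlap on the chromosome and yet shared 51.7%, and the overlapping Mndal promoters 1 and 2 shared 52.3%. A low value here thus does not show that 2 promoters lack shared sequence. Ifi204 had no promoter listed.

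The forkhead letters TGTTTAC, read on both strands, were present in 3 of the 14 promoters, and these were the near copies Ifi206, Ifi213 and Ifi208. They are in 3.65% of all 32851 promoters listed. In Ifi206 the match began 79 bases before the start site, in Ifi213 112 bases and in Ifi208 97 bases before it. The letters GAAANNGAAA of the interferon-stimulated response element (both strands, no overlap with the forkhead match) were present in 10 of the 14 promoters, against 3.44% of all promoters. These 10 are not independent, since they include near copies. Among them are Ifi206, Ifi213 and Ifi208, Ifi207 and Ifi211, and Mndal promoter 2 and Ifi203 promoter 1. In Ifi206, Ifi213 and Ifi208 the match began 39 bases after the first base of the forkhead match. Neither set of letters occurred in the promoters of Aim2 and Ifi209. A match of letters is a description and shows no binding.

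The ChIP libraries held 17520951 to 25386770 tags after duplicate removal, and both replicate 1 libraries, which had the fewest tags, gave the longest lists, while the 2 with the most tags gave the shortest. Redundant tags made up 39 and 30% in WT and A384T replicate 1 and 18 to 21% in the other libraries. Values below are in the order of replicates 1, 2 and 3. The WT lists contained 20723, 1746 and 3905 peaks on the standard chromosomes, while 18147, 6657 and 2050 were in the A384T lists. Both replicate 1 libraries had 51 bp tags and the others 49 bp tags. Peaks were called per library, so presence means a peak past the authors' threshold, and values are placed by their percentile within their own list. The percentile is the rank of the peak, counted up from the lowest -log10 q, as a percent of the list's peaks. Tied peaks have their mean rank.

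The bound regions lay apart from the nearest peaks outside the window. In WT replicate 1 the first and last summits inside the window lay at 175269851 and 175971159, and the nearest outside at 174563291 and 178744941. In every library the nearest peaks outside the window were at least 706.56 kb before its first summit and at least 1750.21 kb after its last. Gaps between peaks elsewhere in the genome were not computed, so these distances are a description. Short lists are sparse everywhere: WT replicate 2 had a peak in 706 windows of 1 Mb, against 1818 for WT replicate 1. From 59.1 kb before to 280 kb after the summit of the strongest region there were 33 regions, and 8 more lay 361 to 642 kb after it. Of those 8, 6 were found in WT replicate 1 alone and the other 2 in both replicate 1 libraries. In WT replicate 1 the window held 41 peaks, and 55 of 1818 windows of 1 Mb that had a peak held more. In A384T replicate 1 it held 18 peaks, and 275 of 1849 windows held more. As a share of such windows, those with more peaks made up 3.03, 3.97 and 2.81% for WT and 14.9, 4.22 and 14.5% for A384T.

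**Figure D1:**
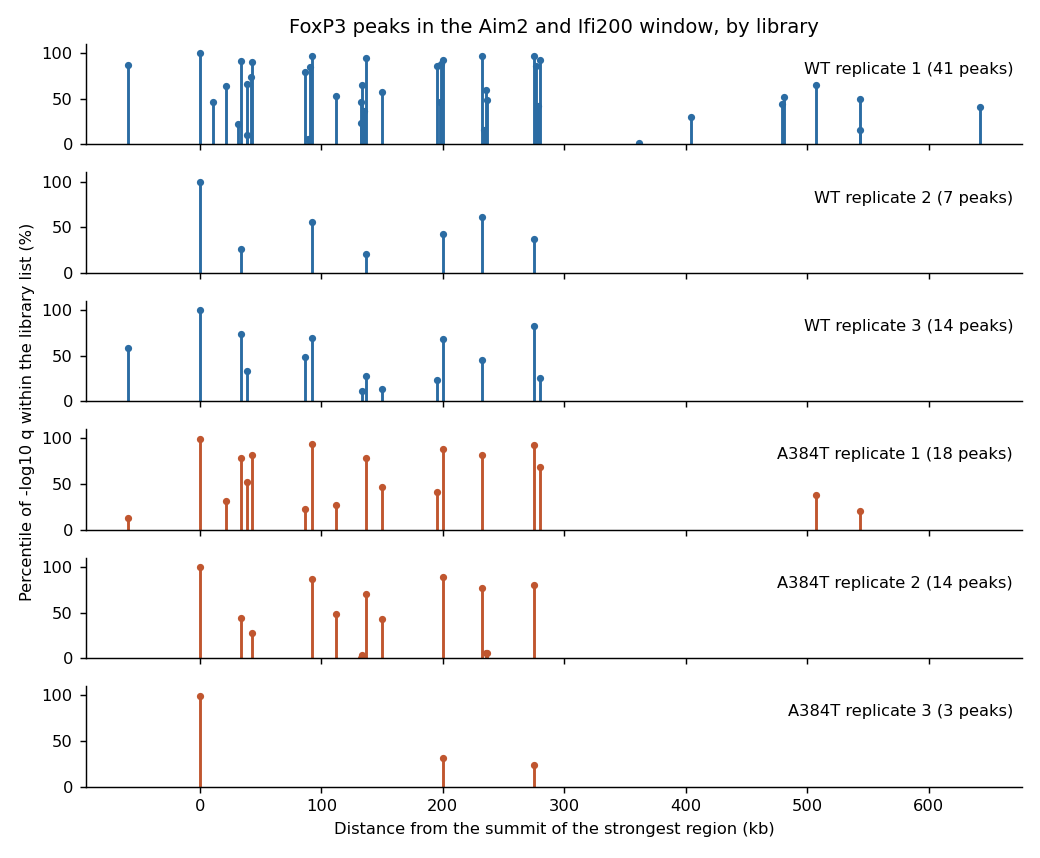
Each line is a FoxP3 peak in the window, placed by its distance in kb from the summit of the strongest region, with its height giving the percentile of its -log10 q within that library's list; WT libraries are blue and A384T libraries orange. The strongest region at 0 kb is at 99.6 or above in every library. Of the 31 regions after it up to 280 kb, 18 are found in at least 2 libraries and 13 in WT replicate 1 alone, and A384T replicate 3 has 3 peaks in all.

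WT replicate 1 had a peak in all 41 regions, and every other list of the window was contained in it. The other WT lists had 7 and 14 peaks here, and the A384T lists 18, 14 and 3. No region was restricted to a genotype in repeated libraries: 0 of 41 were in at least 2 WT libraries and no A384T library (0.872% of all regions), and 0 were in at least 2 A384T libraries and no WT library (0.763% of all regions). Shares this low leave little room for such a region among 41. The second count had to be 0, since WT replicate 1 had a peak in every region. Without A384T replicate 1 the first count was 5, without A384T replicate 2 it was 1, and without WT replicate 1 the second count was 2. No share over all regions is given with a library left out, so these counts are not read as a trait of the window.

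A peak in both genotypes was found in 22 of the 41 regions (53.7%), close to the 56% of all regions. The count was 14 without WT replicate 1 and 14 without A384T replicate 1, with no share over all regions given for those settings. The other 19 regions (46.3%) had a peak in WT replicate 1 alone, where 42.4% of all regions had a peak in 1 library only. In WT replicate 1 these 19 had a median percentile of 42.2 and a median fold enrichment (ChIP over the local control, the authors' value per peak) of 11.0, and the 22 recurrent regions had medians of 82.8 and 18.0. The regions seen in 1 library thus mostly ranked lower in that list, with values up to the 88.5 percentile.

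Peaks in all 6 libraries were found in 3 of the 41 regions (7.32%), against 3.88% of all regions. Without A384T replicate 3, the library with 3 peaks here, 7 regions had a peak in all 5 libraries left. For that setting no share over all regions is given. The 3 regions in all 6 libraries were the strongest one and those 201 and 275 kb after it. The window was chosen by the rank of the strongest one over all lists, so that region was bound to be counted. No excess over 3.88% is read from this count.

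The strongest region, chromosome 1 from 175328736 to 175329287, had the highest fold and the highest pileup of the window in every library. Its fold enrichment was 104, 39.2 and 73.7 for WT; the A384T values were 72.5, 61.7 and 48.6. The groups overlap, with the highest and the lowest value both in WT. The pileup of fragments at the summit, a signal on the scale of each library, was 249, 156 and 209 for WT, and A384T reached 177, 155 and 144. The next strongest peak of the window had a fold of 34.5, 12.6 and 16.2 in the WT lists and of 28.4, 18.99 and 6.91 in the A384T lists. The strongest region was thus 2.56 to 7.04 times the next in fold. In pileup it was 1.46, 3.404 and 3.12 times the next for WT, and 1.53, 1.91 and 2.72 times for A384T, so the gap was smaller in pileup in 5 of the 6 libraries. The window was chosen by the rank of this region's peak, so its lead over the other peaks is a description and not a result.

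The control background under this summit was low. Computed from pileup and fold, it was 1.00, 2.03 and 1.20 times the lowest background the peak caller allows for WT, and 1.00, 1.00 and 1.23 times that minimum for A384T. In 3 of the 6 libraries the fold therefore rests on the caller's own minimum. At the regions 201 and 275 kb away the same background was 1.76 to 6.29 times that minimum.

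**Figure D2:**
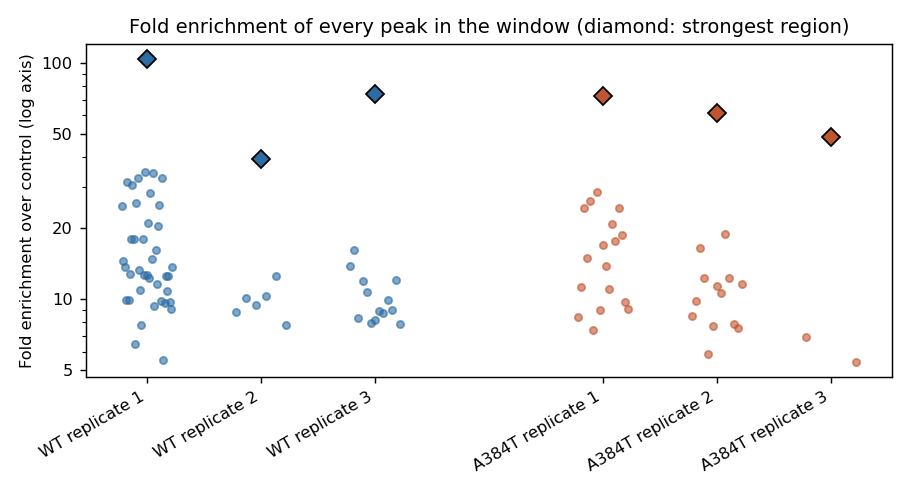
Fold enrichment over control (log axis) of every peak in the window by library, WT in blue and A384T in orange, with the strongest region as a diamond. The diamonds lie at 39.2 to 104, and the highest other peak of the window is at 34.5.

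By -log10 q the strongest region was peak number 2 of 20723, 2 of 1746 and 1 of 3905 for WT. For A384T it was number 66 of 18147, 21 of 6657 and 3 of 2050. The percentile was higher in every WT library than in any A384T library. This held for 1 of the 3 window regions present in all libraries, where it holds for 2.81% of 962 such regions genome-wide, and the reverse held for 0 of 3, against 1.14% genome-wide. Ranked among the 962 regions or by fold the WT and A384T values of this region overlapped. The window was chosen by these ranks, so nothing is read from that count.

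Summits at this region fell close together in all libraries. For WT they lay at 175328944, 175328943 and 175328949, and for A384T at 175328959, 175328949 and 175328939, so the A384T positions enclose those of WT. The A384T mean was 3.67 bp higher, within the spread between libraries (two-sided exact permutation test, p = 0.7, or 0.8 after Benjamini-Hochberg adjustment over 3 regions; 3 libraries against 3 cannot give less than 0.1). The peak was 547, 302 and 479 bp wide for WT, against 333, 261 and 229 bp for A384T, so 1 A384T value exceeds the lowest WT value. On the log2 scale the A384T widths were lower by a difference of -0.66 (exact permutation p = 0.2, adjusted p = 0.6). The difference was negative in 3 of 3 replicate pairs. The median peak width of the lists themselves was 261, 190 and 211 bp for WT, with 264, 214 and 180 bp for A384T.

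The region 201 kb after it, from 175528929 to 175529772, had WT folds of 14.8, 10.3 and 9.97 and A384T folds of 20.8, 18.99 and 6.91. The groups overlap, and A384T replicate 3 is the lowest. Its summits spanned 175529467 to 175529499, with an A384T mean 5 bp higher (exact permutation p = 0.7, adjusted p = 0.8). Its width ran from 131 bp in A384T replicate 3 to 844 bp in WT replicate 1, and the log2 widths differed by -0.018 (exact permutation p = 1, adjusted p = 1).

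The region 275 kb after the strongest, from 175603354 to 175604313, had WT folds of 20.4, 7.79 and 12.1 and A384T folds of 24.3, 11.6 and 5.44. Its percentile was 96.4, 37.3 and 82.7 for WT, with 93.1, 79.95 and 23.6 for A384T, lowest in the shortest list of each genotype. Its summits fell at 2 places: from 175603774 to 175603789 in WT replicates 1 and 2 and A384T replicate 1, and from 175603707 to 175603715 in the other libraries. The genotype means differed by -19.7 bp (exact permutation p = 0.8, adjusted p = 0.8) and the log2 widths by -0.16 (exact permutation p = 0.8, adjusted p = 1).

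Another 4 regions had a peak in every library but A384T replicate 3. The best-ranked of them, from 175420910 to 175421863, had WT folds of 32.5, 10.2 and 10.7, with 28.4 in A384T replicate 1 and 16.5 in A384T replicate 2. The region from 175560659 to 175561507 had WT folds of 34.2, 12.6 and 9.02, with 17.7 and 12.3 for A384T. In both, the highest value is that of WT replicate 1 and the WT values enclose those of A384T. The regions from 175362484 to 175363123 and from 175465576 to 175466386 had WT folds of 8.16 to 34.5 and A384T folds of 8.53 to 24.3.

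The remaining 5 of the 12 best-ranked recurrent regions were found in 2 or 3 libraries. The region from 175371313 to 175371851, 42.7 kb after the strongest, had a fold of 30.5 in WT replicate 1, 26.1 in A384T replicate 1 and 9.84 in A384T replicate 2. The regions from 175608597 to 175609090, 175269724 to 175269979 and 175367737 to 175367984 were each found in WT replicates 1 and 3 and A384T replicate 1, with folds of 7.88 to 32.7. The region from 175836197 to 175836552, the farthest of the 12 from the strongest region, was found in the replicate 1 libraries alone, at 12.6 in WT and 9.76 in A384T. The other 10 recurrent regions had folds of 5.88 to 21.04.

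**Figure D3:**
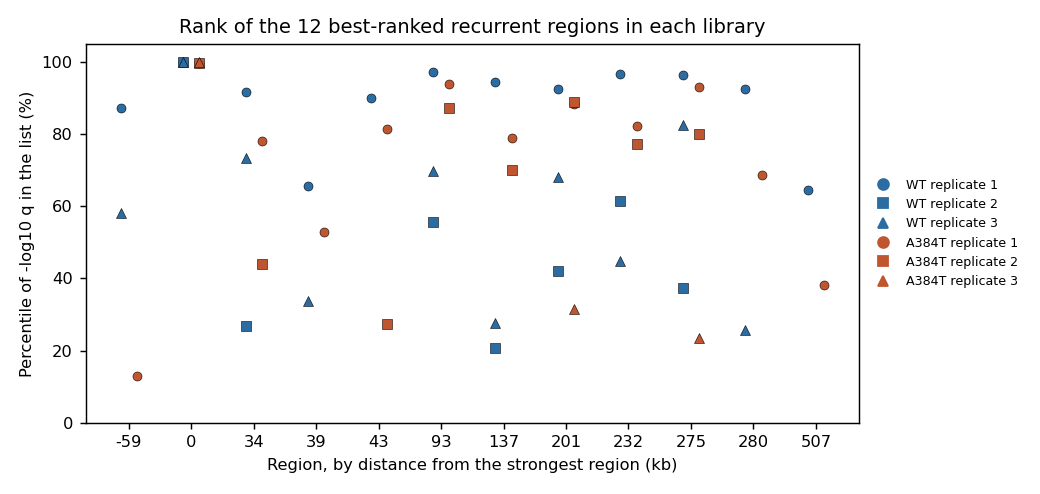
Percentile of -log10 q within the list (vertical axis, %) for the 12 best-ranked recurrent regions, ordered along the chromosome by distance in kb from the strongest region; colours give the genotype and symbols the replicate number. The strongest region is at 99.6 or above in all 6 libraries, and the WT replicate 1 circle lies above the A384T replicate 1 circle at every region shown.

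The window took a larger share of the WT lists than of the A384T lists in each replicate number. It held 0.198, 0.401 and 0.359% of the WT peaks (exact Clopper-Pearson 95% intervals 0.142 to 0.268, 0.161 to 0.824 and 0.196 to 0.601%). It held 0.0992, 0.210 and 0.146% of the A384T peaks (0.0588 to 0.157, 0.115 to 0.353 and 0.0302 to 0.427%). These intervals cover counting error only. A384T replicate 2 exceeds WT replicate 1, so the groups overlap. The WT mean was 0.319 ± 0.107% and the A384T mean 0.152 ± 0.0558% (SD, n = 3 per genotype). The A384T minus WT difference of -0.167 percentage points did not pass a two-sided exact permutation test (p = 0.2).

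The direction was the same within each tag length and at equal list length. The 51 bp libraries gave 0.198% in WT and 0.0992% in A384T, 1 value each, and the 49 bp libraries 0.380 ± 0.0300% and 0.178 ± 0.0452% (SD, n = 2 each). When only the 1746 strongest peaks of each list were kept, the length of the shortest, the WT lists kept 8, 7 and 6 peaks in the window and the A384T lists 3, 5 and 3. At that length the groups no longer overlapped (exact two-sided permutation, p = 0.1, the lower limit for 3 against 3). How many other windows of 1 Mb separate the genotypes in this way was not computed, so the separation is not read as a trait of this window. Peaks of the rows of repeated spacing described below were counted as separate peaks. With replicate numbers as pairs the A384T share was lower in 3 of 3 pairs (exact permutation of signs, p = 0.25, the smallest that 3 pairs allow).

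**Figure D4:**
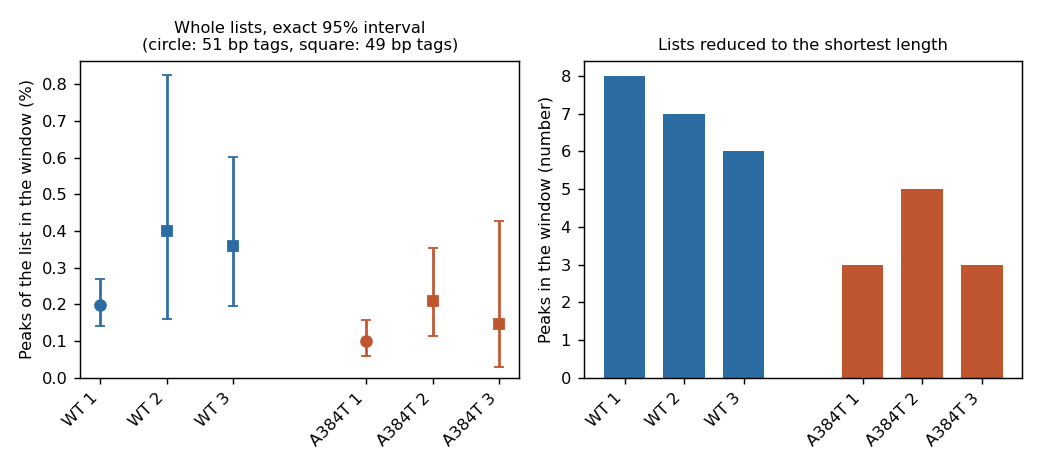
Left, percent of each library's peaks that lie in the window, with exact 95% intervals, circles for 51 bp and squares for 49 bp tags; right, number of peaks in the window after all lists were reduced to 1746 peaks. WT libraries (blue) lie at 0.198 to 0.401% and 6 to 8 peaks, A384T libraries (orange) at 0.0992 to 0.210% and 3 to 5 peaks.

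The lists of each replicate number were also set side by side, and the direction of the ranks was not the same in all 3 pairs. Of the 41 regions of WT replicate 1, 18 (43.9%) had a peak in A384T replicate 1, against 66.4% of all regions of that library. In turn 18 of the 18 regions of A384T replicate 1 had a peak in WT replicate 1, against 76.3% genome-wide. The percentile was higher in WT in 18 of these 18 regions, where this was so for 56.4% of the 13567 regions the 2 libraries share. The median difference was 14.9 percentile points in the window and 2.82 over all shared regions. In replicate 2 the direction was the opposite: the percentile was higher in WT in 1 of 7 shared regions, against 15.6% of 1623 genome-wide, with a median difference of -31.5 points in the window and -21.4 overall. In replicate 3 it was higher in WT in 3 of 3, against 72% of 1431 genome-wide. In each pair most shared regions genome-wide moved the same way as the window. These values compare 1 library with 1 library and carry no test.

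The replicate 2 and replicate 3 pairs are lists of unlike length. All 7 window regions of WT replicate 2 had a peak in A384T replicate 2 (97.5% genome-wide), and 7 of 14 in the other direction (25.6% genome-wide). Of the 14 of WT replicate 3, 3 (21.4%) had a peak in A384T replicate 3 (38.8% genome-wide), and all 3 in the other direction (71.9% genome-wide).

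Several groups of peaks repeated the same spacing along the cluster. The arrangement was seen in WT replicate 1, the only list with all of the peaks, and was chosen after the positions were seen. A row of 4 peaks was found 3 times. Its summits lay at 175415879, 175418298, 175419767 and 175421453 in the first, and at 175524286, 175526285, 175527835 and 175529467 in the second. In the third the order was reversed, at 175608949, 175606944, 175605412 and 175603779. The first step was 2419, 1999 and 2005 bp, the second 1469, 1550 and 1532 bp, and the third 1686, 1632 and 1633 bp.

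The peaks at matching places in these rows also recurred in matching libraries. In all 3 rows the first peak was found in WT replicates 1 and 3 and A384T replicate 1, and the next 2 peaks in WT replicate 1 alone. The fourth peak was found in 5, 6 and 6 libraries, and in the last 2 rows it is the region 201 or 275 kb after the strongest. The second peak was the weakest of each row, with folds of 6.46, 12.4 and 9.83. The third had folds of 25.6, 28.1 and 25.2 in WT replicate 1 and no peak in the other lists.

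A row of 3 peaks was found 2 times, in opposite orders. Its summits lay at 175466116, 175464097 and 175462473 and at 175560949, 175562989 and 175564625, with steps of 2019 and 1624 bp and of 2040 and 1636 bp. The first peak was in 5 libraries in both rows, the second in WT replicate 1 alone, and the third in WT replicates 1 and 3 and A384T replicate 2 or in WT replicate 1 and A384T replicate 2.

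**Figure D5:**
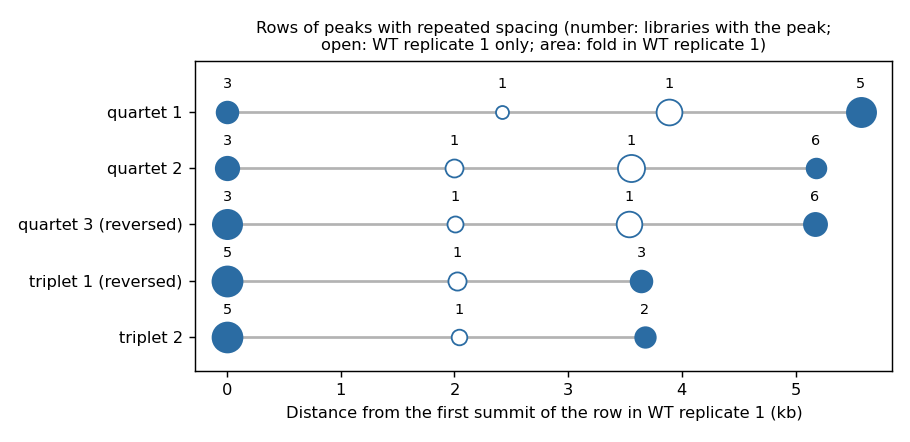
Rows of peaks with repeated spacing, each drawn from its first summit (horizontal axis, kb, in WT replicate 1), with area proportional to fold enrichment in WT replicate 1 and the number of libraries that have the peak above each circle; open circles are peaks of WT replicate 1 alone. The last 2 rows of 4 nearly coincide at every place, and the middle peaks are open in all 5 rows.

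The ends of the rows were also called in other libraries. These peaks were matched to a row by overlap with the peaks of WT replicate 1, so their distances are bound to be similar, and no single step of the rows of 4 was measured in another library. From the first to the fourth peak the distance was measured in WT replicate 1, WT replicate 3 and A384T replicate 1. It was 5574, 5670 and 5580 bp for the first row, 5181, 5183 and 5155 bp for the second and 5170, 5211 and 5134 bp for the third. From the first to the third peak of the shorter rows it was 3643 to 3726 bp over 5 values from WT replicates 1 and 3 and A384T replicate 2. How reads that fit more than 1 copy were placed is not given in the sources used here, and whether the copies share reads was not tested.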

How the data were processed

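FoxP3 ChIP libraries (3 WT, 3 A384T) had been prepared from cells fixed for 30 min in 1% formaldehyde with 4 µg of antibody, per the labels. Bowtie2, MACS2 and build mm9 are named in the submitters' processing notes. Per the file headers, MACS 2.1.0.20140616 called peaks on each library against 1 control, at a q-value cutoff of 1e-10 and with 1 tag kept per position. The deposited lists give the pileup (a signal), fold enrichment (a ratio), -log10 p-value and -log10 q-value of each peak; values of a peak are the authors' own.

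The analysis kept chromosomes 1 to 19, X and Y; peaks of different libraries overlapping by at least 1 bp were joined. Genotypes were compared by two-sided exact permutation over libraries. Replicate numbers were taken as pairs, by within-group deviations of rank over 962 shared regions. These correlated in each same-numbered pair (Pearson r of 0.435, 0.123 and 0.374 for numbers 1, 2 and 3). Pairs of unlike number gave r of -0.354 to 0.0190. Number 1 is also the tag-length batch, and deviations within a group are tied to each other, so this is only a hint from the data. Regions named are the 12 best by mean percentile among those in at least 2 libraries; the rows of repeated spacing were added after seeing positions. Joining and ranks were tested on simulated lists. The members, lists and tests were chosen with earlier results of these data known. Promoters came from RefSeq (GRCm38.p6), with pairwise global alignment. Alternatives were equal list length, -log10 q of at least 20, fold of at least 5, other window edges, 50% overlap, summits within 200 bp, ranking by fold or within the shared set, the replicate block, and each library left out. Software was Python 3.11.15, numpy 2.4.6, pandas 2.3.3, scipy 1.17.1, Biopython 1.88 and matplotlib 3.10.9.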

Additional observations from a re-analysis of the deposited data

How the results depend on the processing

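Over 151 alternatives to 14 results, 129 were counted as the same, 10 moved the value and 12 reversed its sign. Counts were judged by 1.5-fold and percentiles by 1 SD. Tested differences were judged by sign and a p-value cutoff that no p here could reach, so their size was not judged. The summit difference of 5 bp at the region 201 kb after the strongest became 0 without WT replicate 1 and was counted as the same. This tally is no measure of stability: moved window edges and a fold of at least 5 left the 41 regions as they were, the replicate block keeps the mean difference by construction, and the SD of the percentiles is wide. The lower A384T share kept its direction in all of its alternatives, from -0.228 to -0.126 percentage points with 1 library left out. With lists of 1746 peaks the window held 9 regions. Of these, 5 had a peak in both genotypes and 2 were in at least 2 WT libraries alone. With 1 library left out, regions with a peak in both genotypes numbered 14 to 22, those in all libraries 3 to 7, and those in at least 2 libraries of 1 genotype 0 to 5 for WT and 0 to 2 for A384T. No share over all regions is given at these settings, so the counts must not be set against the shares of the whole lists. The rank difference of the strongest region, -0.231 percentile points, was -0.022 by fold and -2.39 among the 962 shared regions. Leaving 1 library out gave summit differences of -1.33 to 8.67 bp for the strongest region, -3.5 to 10.5 bp for the region 201 kb after it and -46 to -5 bp for the one 275 kb after it. Differences in log2 width were then -0.92 to -0.49, -0.66 to 0.75 and -0.76 to 0.52, and differences in percentile -0.309 to -0.178, -10.7 to 20.999 and -24.0 to 14.4. The cause of these reversals was not tested. With the replicate block the share, -0.167, had p = 0.25 (exact permutation of signs), and since neither design can give a p below 0.1, no call could be made or lost. Absence from a short list limits every count here, since a region can be bound below the cutoff.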
